A study of Mus musculus with 8 samples.

Results

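The CXC chemokines examined here are *Cxcl1*, *Cxcl2*, *Cxcl5*, *Cxcl9*, *Cxcl10*, *Cxcl12*, *Cxcl13*, *Cxcl14* and *Cxcl16*, which are 9 of the 41709 genes for which mRNA levels were measured in tibialis anterior (TA) muscles. *Cxcl1* was selected on its fall in the comparison described here, so its values are given as a description with no test, and the other 8 were taken as its family. The 8 muscles came from 3-month-old male C57BL/6J mice and were collected 7 days after electroporation. In each mouse, 1 TA muscle had received *Uba1* siRNAs, a mixture of 4 siRNA species against the mRNA of the E1 enzyme that starts protein ubiquitination. The contralateral muscle had received control non-targeting (NT) siRNAs, so all muscles share the injection and the electroporation. There were 4 muscles per group, each from a different mouse, and equal replicate numbers mark the legs of 1 mouse. All NT muscles are labelled as right and all *Uba1* siRNA muscles as left, and leg and siRNA cannot be told apart. Every title and description of the knockdown group gives UBA1 as the target, but the treatment tag does so for replicate 1 alone and reads UBA2, UBA3 or UBA4 in the others.

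CXC chemokines are small secreted proteins that guide leukocytes through G protein-coupled receptors. CXCL1, CXCL2 and CXCL5 carry the ELR motif and draw neutrophils through CXCR2, and their genes are classical targets of NF-kB downstream of IL-1 and TNF. CXCL9 and CXCL10 are induced by interferons and attract T cells through CXCR3, whereas CXCL12, CXCL13, CXCL14 and CXCL16 include ligands that are made constitutively in many tissues. In injured muscle, resident cells and macrophages release CXC chemokines as leukocytes enter.

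The knockdown and marker genes of the muscle were examined first. *Uba1* mRNA was at 59.0 to 63.6 TPM (transcript abundance scaled to transcript length and to the same total in each muscle) with NT siRNAs and at 18.1, 6.77, 15.8 and 23.1 TPM in replicates 1 to 4 with *Uba1* siRNAs, with no overlap. Its log2FC was -1.98 ± 0.290 (SE; limma, adjusted p = 0.0527). Blocking on the replicate gave an adjusted p of 0.0278 (limma). Markers of fast myofibers summed to 111093 to 121063 TPM with NT siRNAs and 87900 to 122579 TPM with *Uba1* siRNAs, and all 7 were above 0 in every muscle. Of the 11530 genes tested, 81.8% had a log2FC above 0, and the median log2FC was 0.11. With median-ratio scaling the median moved to -0.0055, a shift of 0.111 on the log2 scale. At an unadjusted p under 0.05 in limma, 228 genes were lower and 1844 higher, against 773 and 450 with median-ratio scaling. A log2FC is the mean log2(TPM + 1) with *Uba1* siRNAs minus that with NT siRNAs, and for genes with low TPM it is smaller than the fold of the TPM themselves.

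The genes of 6 of the 9 chemokines lie on chromosome 5 (GRCm39, GENCODE M39 annotation). *Cxcl5* (chr5:90907237-90909483), *Cxcl1* (chr5:91039094-91040974) and *Cxcl2* (chr5:91051730-91053797) are on the plus strand, and 10.8 kb separate the end of *Cxcl1* from the start of *Cxcl2*. *Cxcl9* (chr5:92469206-92475945) and *Cxcl10* (chr5:92494497-92496748) lie on the minus strand, 18.6 kb apart, and *Cxcl13* lies beyond them (chr5:96104810-96108927). Because the 3 ELR genes had the lowest levels relative to control muscles, the 250 bases before their annotated starts are shown with that of *Cxcl10*. They are the windows chr5:91038844-91039093 (plus strand), chr5:91051480-91051729 (plus strand), chr5:90906987-90907236 (plus strand) and chr5:92496749-92496998 (minus strand) of GRCm39, written 5′ to 3′ along the gene. Capitals mark matches to the NF-kB consensus on either strand and, in *Cxcl10*, also a match to the interferon response core GAAANNGAAA.
Cxcl1: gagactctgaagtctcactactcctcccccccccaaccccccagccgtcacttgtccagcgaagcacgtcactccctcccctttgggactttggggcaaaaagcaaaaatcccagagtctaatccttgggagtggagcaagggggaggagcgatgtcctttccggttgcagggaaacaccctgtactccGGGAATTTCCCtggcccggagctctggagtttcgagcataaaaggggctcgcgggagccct
Cxcl2: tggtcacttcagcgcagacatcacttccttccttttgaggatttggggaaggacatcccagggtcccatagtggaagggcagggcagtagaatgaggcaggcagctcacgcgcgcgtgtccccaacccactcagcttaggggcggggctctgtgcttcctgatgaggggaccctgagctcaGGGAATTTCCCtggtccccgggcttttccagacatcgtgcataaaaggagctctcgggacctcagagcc
Cxcl5: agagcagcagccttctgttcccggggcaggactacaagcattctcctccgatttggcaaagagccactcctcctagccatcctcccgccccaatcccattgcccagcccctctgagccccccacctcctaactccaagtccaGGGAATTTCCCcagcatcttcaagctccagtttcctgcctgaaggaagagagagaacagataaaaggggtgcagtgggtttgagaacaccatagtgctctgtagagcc
Cxcl10: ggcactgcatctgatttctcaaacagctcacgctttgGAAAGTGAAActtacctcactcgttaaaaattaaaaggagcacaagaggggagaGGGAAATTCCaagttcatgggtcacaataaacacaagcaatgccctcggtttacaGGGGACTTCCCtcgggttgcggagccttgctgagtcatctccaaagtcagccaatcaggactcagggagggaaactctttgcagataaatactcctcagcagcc
The first 3 windows hold the same run of 11 bases, GGGAATTTCCC, where a match on each strand overlaps the other. That run was noticed after the windows were read, and 11 of the 21770 windows of protein-coding genes contain it (0.0505%), among them also that of *Cxcl3*. It starts 61 bases before the start of *Cxcl1*, 69 before that of *Cxcl2* and 108 before that of *Cxcl5*. *Cxcl10* has matches that begin 159, 104 and 103 bases before its start, the last pair overlapping, and an interferon response core at 213 to 204 bases. Another interferon response core is found 112 to 103 bases before the start of *Cxcl14*. In the windows of *Cxcl9*, *Cxcl12*, *Cxcl13* and *Cxcl16* neither motif was matched. Over all windows, 7.62% hold a match to the NF-kB consensus and 3.32% an interferon response core. A match describes the letters and is not evidence of binding.

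*Cxcl1* was lower in every *Uba1* siRNA muscle than in any NT muscle. Its levels were 39.6, 66.7, 68.2 and 52.3 TPM in NT replicates 1 to 4, a mean of 56.7 ± 13.5 TPM (SD, n = 4). With *Uba1* siRNAs they were 10.6, 10.8, 3.80 and 27.1 TPM, a mean of 13.1 ± 9.88 TPM (SD, n = 4). The highest *Uba1* siRNA muscle, replicate 4, was below the lowest NT muscle, replicate 1. Relative to the other leg of the same mouse, *Cxcl1* was at 26.8, 16.1, 5.57 and 51.7% in replicates 1 to 4, so the size of the difference varied widely between mice. The log2FC was -2.28. It ranged from -2.70 to -1.85 over the settings tried, and both ends came from leaving out 1 muscle. The TPM correspond to 6446 reads with NT siRNAs and 1484 with *Uba1* siRNAs.

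*Cxcl2*, a close relative of *Cxcl1* with the same receptor, was lower in all 4 pairs but did not pass the test. Its levels were 2.94, 11.5, 12.9 and 5.90 TPM with NT siRNAs (8.32 ± 4.70 TPM, SD, n = 4) and 1.64, 1.58, 1.00 and 4.20 TPM with *Uba1* siRNAs (2.10 ± 1.43 TPM, SD, n = 4). The groups overlapped, because *Uba1* replicate 4 was above NT replicate 1. The log2FC was -1.52 ± 0.419 (SE; limma, adjusted p = 0.165), and the lowest adjusted p of any setting was 0.104, with the replicate block. At an unadjusted p under 0.05, *Cxcl2* was the only one of the 6 tested chemokines other than *Cxcl1* that passed (limma), whereas 1.98% of all genes tested passed it with a lower level. With median-ratio scaling *Cxcl2* was again the only one. There, 773 of the 11530 genes tested passed with a lower level, against 228 without that scaling. These levels rest on 1042 reads with NT siRNAs and 263 with *Uba1* siRNAs.

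*Cxcl5*, another CXCR2 ligand, was near the limit of detection and below the filter of 1 TPM in at least 4 muscles. It was listed at 0.170, 0.485, 0.682 and 0.296 TPM with NT siRNAs and at 0.0364, 0.0343, 0 and 0.0353 TPM with *Uba1* siRNAs. These values correspond to 5, 14, 19 and 8 reads against 1, 1, 0 and 1 reads. No *Uba1* siRNA muscle reached the lowest NT muscle. Pooled over muscles, the level with *Uba1* siRNAs was 6.59% of that with NT siRNAs (exact 95% interval 1.31 to 20.5%, counting error only). The 0 in *Uba1* replicate 3 allows up to 3 reads, or 0.111 TPM. Fitted without the filter, its log2FC was -0.44 ± 0.10 (SE; limma, adjusted p = 0.218).

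The 3 ELR chemokines shared the muscles at the extremes of the NT group. Replicate 1 had the lowest level of each in the NT group and replicate 3 the highest. In the *Uba1* siRNA group replicate 3 was the lowest and replicate 4 the highest for *Cxcl1* and *Cxcl2*, whereas the reads of *Cxcl5* were too few to order these muscles. Among the 8 chemokines other than *Cxcl1*, *Cxcl2* and *Cxcl5* were lower in all 4 pairs, and *Cxcl5* alone had groups that did not overlap. Of all genes above 0 in at least 4 muscles, 3.25% were lower in all 4 pairs and 0.986% were lower with no overlap. Of the genes tested, 2.98% were lower in all 4 pairs and 1.01% were lower with no overlap, and of the 6 tested chemokines 1 and 0 were. Neutrophils are the cells these chemokines attract. The 7 neutrophil markers summed to 16.4, 53.7, 21.6 and 30.4 TPM with NT siRNAs and 28.2, 45.4, 64.1 and 34.9 TPM with *Uba1* siRNAs, higher in 3 of 4 pairs, and 5 of the 7 were above 0 in every muscle. The 2 red blood cell markers summed to 1736, 3694, 4113 and 1148 TPM with NT siRNAs and 2158, 1201, 1714 and 1110 TPM with *Uba1* siRNAs, lower in 3 of 4 pairs. In the NT group they were highest in replicates 2 and 3, the replicates with the highest *Cxcl1*, *Cxcl2* and *Cxcl5*. The part of either cell type in the values of the ELR chemokines was not tested. In whole muscle, fewer cells of a type and less RNA per cell cannot be told apart.

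**Figure D1:**
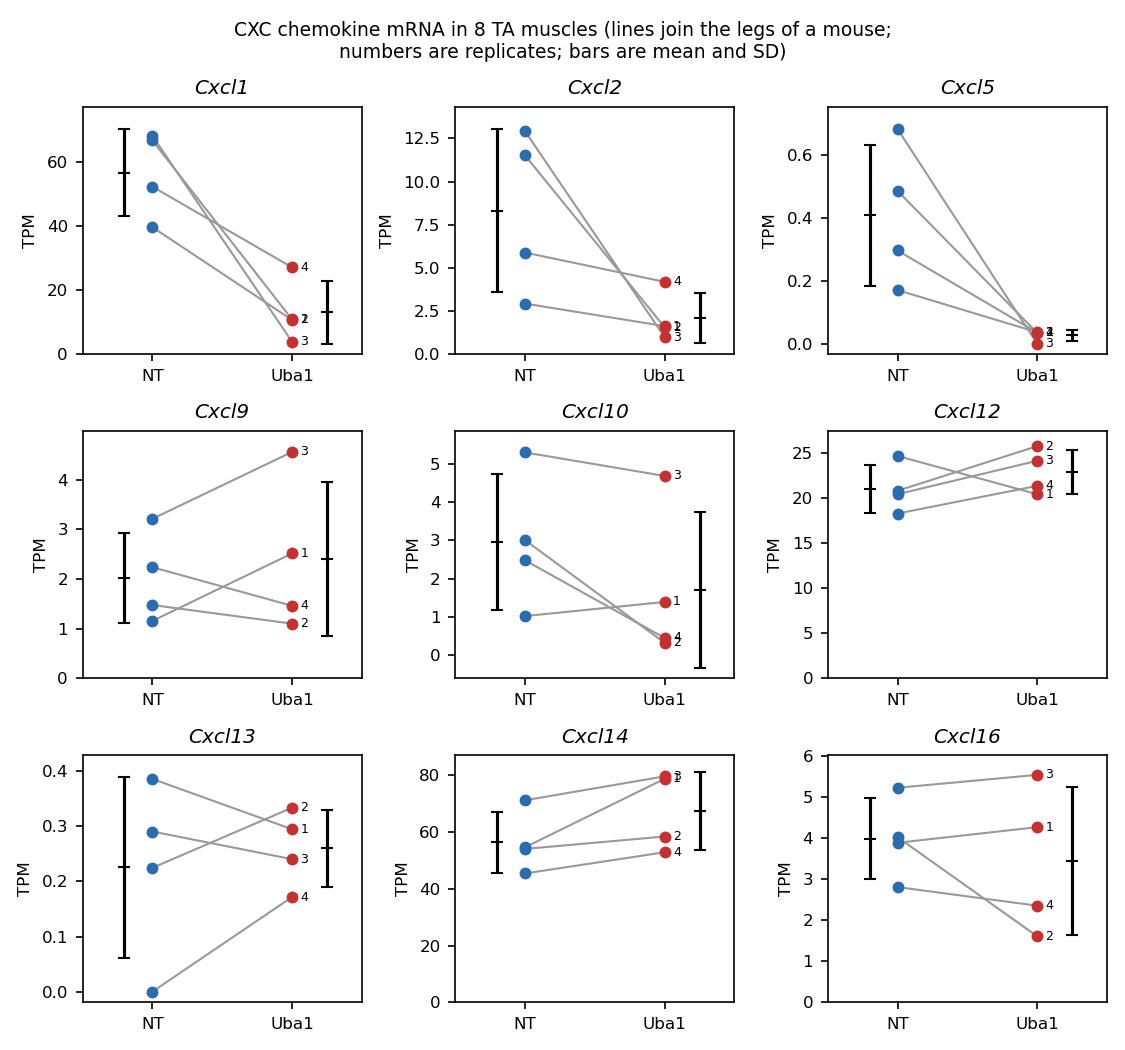
Level of each CXC chemokine in TPM (y axis, a scale of its own in each panel) in the 4 NT siRNA muscles (blue) and the 4 *Uba1* siRNA muscles (red). Grey lines join the legs of a mouse, numbers give the replicate, and black bars show the mean and SD. All lines fall for *Cxcl1*, *Cxcl2* and *Cxcl5*, and all rise for *Cxcl14*, which rises in 3 of 4 pairs with median-ratio scaling.

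The messages of *Cxcl1* and *Cxcl2* also have many copies of the pentamer ATTTA, the core of AU-rich elements that shorten mRNA life, in their 3′ UTR. *Cxcl1* has 7 copies in 592 bases and *Cxcl2* 11 in 734 bases. As many or more were found in 15.1% and 6.34% of the 20854 protein-coding transcripts with a 3′ UTR, whose median is 1. *Cxcl5* has 5 copies in 1111 bases, reached by 23.9% of transcripts. The other 6 chemokines have 1 to 4 copies in 729 to 5188 bases, with the fewest in *Cxcl14*.

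For both interferon-induced chemokines, the SD within either group exceeded the difference between the group means in TPM. *Cxcl9*, induced chiefly by interferon-γ, was at 1.16, 1.48, 3.21 and 2.24 TPM with NT siRNAs and at 2.52, 1.10, 4.56 and 1.46 TPM with *Uba1* siRNAs. It was higher in replicates 1 and 3 and lower in replicates 2 and 4, and the groups overlapped. The means were 2.02 ± 0.915 and 2.41 ± 1.55 TPM (SD, n = 4 each), with a log2FC of 0.12 ± 0.311 (SE; limma, adjusted p = 0.842). The sign turned without NT replicate 1 (-0.028) or without *Uba1* replicate 3 (-0.15).

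*Cxcl10*, which responds to both interferons and NF-kB, was at 1.01, 3.01, 5.31 and 2.48 TPM with NT siRNAs. With *Uba1* siRNAs it was at 1.38, 0.312, 4.69 and 0.438 TPM. Replicates 2 and 4 had the low values, and replicate 1 was slightly higher than its control leg. The log2FC was -0.70 ± 0.482 (SE; limma, adjusted p = 0.436), with lower levels in 3 of 4 pairs. It was -1.14 without *Uba1* replicate 3, -0.43 without NT replicate 3 and -1.23 with a pseudocount of 0.1. The reads behind it numbered 401 and 225.

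*Cxcl9* and *Cxcl10* were highest in replicate 3 of both groups. Macrophage markers, which are 6 genes above 0 in every muscle, followed the same mouse. They summed to 162, 192, 333 and 104 TPM with NT siRNAs and 244, 102, 353 and 119 TPM with *Uba1* siRNAs. The markers of T and NK cells summed to 1.03, 1.61, 1.97 and 1.03 TPM with NT siRNAs and 1.31, 0.424, 2.64 and 0.964 TPM with *Uba1* siRNAs, and only 4 of the 6 were above 0 in every muscle. Both sums were highest in replicate 3 of each group, and their part in the levels of *Cxcl9* and *Cxcl10* was not tested.

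*Cxcl16*, a membrane-bound chemokine shed by ADAM10 and ADAM17 that binds CXCR6, was at 3.88, 4.02, 5.22 and 2.81 TPM with NT siRNAs. It was at 4.26, 1.61, 5.53 and 2.35 TPM with *Uba1* siRNAs. Replicate 3 was again the highest of both groups, and the ranges overlapped. Within each group its order of muscles was that of the summed macrophage markers, whose part in its level was not tested. The log2FC was -0.24 ± 0.276 (SE; limma, adjusted p = 0.642), lower in 2 of 4 pairs. It was -0.012 without *Uba1* replicate 2 and -0.45 without *Uba1* replicate 3.

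*Cxcl14* was the only chemokine of the 9 that was higher in all 4 pairs, or in 3 of 4 with median-ratio scaling, and it did not pass the test. Its levels were 54.6, 54.0, 71.2 and 45.4 TPM with NT siRNAs (56.3 ± 10.8 TPM, SD, n = 4) and 78.7, 58.4, 79.6 and 52.9 TPM with *Uba1* siRNAs (67.4 ± 13.8 TPM, SD, n = 4). The groups overlapped across mice. Of all genes tested, 32.2% were higher in all 4 pairs. The log2FC of *Cxcl14* was 0.25 ± 0.167 (SE; limma, adjusted p = 0.421), and it fell to 0.12 at the lowest over the settings tried. Fibroblast markers, 5 genes present in every muscle, summed to 429 to 913 TPM with NT siRNAs and 566 to 1130 TPM with *Uba1* siRNAs and were higher in 4 of 4 pairs. Their part in the level of *Cxcl14* was not tested.

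*Cxcl12*, the ligand of CXCR4 and ACKR3 and a retention signal for leukocytes and stem cells, varied least between muscles relative to its mean. It was at 24.6, 20.8, 20.4 and 18.3 TPM with NT siRNAs and 20.4, 25.7, 24.1 and 21.3 TPM with *Uba1* siRNAs. Replicate 1 was lower with *Uba1* siRNAs and the other 3 replicates higher. The log2FC was 0.12 ± 0.104 (SE; limma, adjusted p = 0.534), close to the median of all genes, and it was -0.0047 with median-ratio scaling. With 1 muscle left out it lay between 0.058 (without NT replicate 4) and 0.195 (without NT replicate 1).

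*Cxcl13*, which guides B cells through CXCR5, was below the filter. Its levels were 0.386, 0.225, 0.291 and 0 TPM with NT siRNAs and 0.295, 0.334, 0.240 and 0.172 TPM with *Uba1* siRNAs. Only 16 and 18 reads lay behind them, and the 0 in NT replicate 4 allows up to 3 reads, or 0.180 TPM. Without the filter, the adjusted p was 0.831 (limma, log2FC 0.05). A difference was not detectable at this depth, since the level with *Uba1* siRNAs was 114% of that with NT siRNAs with an exact 95% interval from 54.8 to 238% (counting error only).

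Of the 6 tested chemokines other than *Cxcl1*, 0 passed an adjusted p of 0.05 in limma, 1 (*Cxcl2*) passed an unadjusted p of 0.05, and 0 did so in the exact rank test. Among all genes tested, 0.026% passed the adjusted p, whereas 18% passed the unadjusted p in limma and 11.6% in the exact rank test. With the replicate block, 0.494% of all genes passed the adjusted p and again 0 of the 6 chemokines. There, *Cxcl2*, *Cxcl10* and *Cxcl14* passed an unadjusted p of 0.05 (limma), as did 25.2% of all genes tested.

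The levels of the 9 chemokines fell into steps in the NT muscles. TPM are scaled per length of transcript, so that levels of different genes can be compared. On the deposited TPM, *Cxcl1* and *Cxcl14* led with overlapping ranges, and which had the higher mean depended on single muscles. Without NT replicate 2 the mean was 53.4 TPM for *Cxcl1* and 57.1 TPM for *Cxcl14*, and without NT replicate 4 it was 58.2 and 59.9 TPM. *Cxcl12* followed at 18.3 to 24.6 TPM, below both and above all others. The next 4, *Cxcl2*, *Cxcl16*, *Cxcl10* and *Cxcl9*, overlapped their neighbours between 1.01 and 12.9 TPM. *Cxcl5* and *Cxcl13* were at 0.682 TPM or less. In the *Uba1* siRNA muscles *Cxcl14* led alone, and *Cxcl1* came after *Cxcl12* with overlapping ranges. *Cxcl1* made up 30.9 to 41.1% of the summed TPM of the 9 genes with NT siRNAs and 3.07 to 24.6% with *Uba1* siRNAs. The share of *Cxcl14* was 33.3 to 42.5% and 48.1 to 65.7%, in a sum that holds *Cxcl1*, the gene selected on its fall, so these shares are no measure of *Cxcl14* itself.

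**Figure D2:**
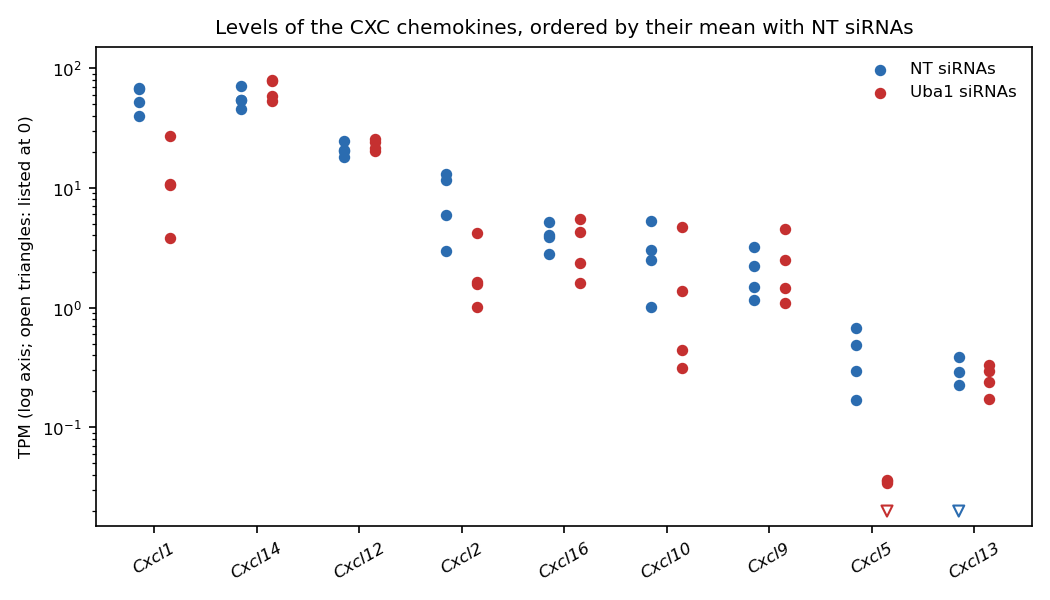
Level of the 9 CXC chemokines in TPM (log y axis) in each NT siRNA muscle (blue) and each *Uba1* siRNA muscle (red), ordered by their mean with NT siRNAs. Open triangles mark values listed at 0. *Cxcl1* has no *Uba1* siRNA muscle above 27.1 TPM, and *Cxcl12* stays between 18.3 and 25.7 TPM in both groups.

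The length behind each TPM can be checked for most of the family. With the exons annotated in GENCODE M39, 1 TPM corresponded to 15.5 to 15.8 reads per kb of exon sequence for 7 of the 9 chemokines, in units of NT replicate 1. It was 8.41 for *Cxcl14* and 9.30 for *Cxcl16*, so the gene length used by the authors, or the number of reads, is uncertain for these, and so is their level relative to the others. On the annotated length, an alternative chosen after seeing the data, the mean of *Cxcl14* with NT siRNAs would be 30.2 TPM, with a range (24.3 to 38.2 TPM) below that of *Cxcl1* and overlapping that of *Cxcl12*. *Cxcl16* would be at 2.36 TPM. *Cxcl14* would still have the highest mean in the *Uba1* siRNA muscles, and its share of the summed TPM would be 21.4 to 28.8% with NT siRNAs and 33.6 to 51.7% with *Uba1* siRNAs. That of *Cxcl1* would be at most 49.2% and 32.1%. The ratio of a gene's TPM between muscles does not depend on that length, whereas a log2FC on log2(TPM + 1) does so for a low gene such as *Cxcl16*, and no fit was made on the annotated length.

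Deviations from the group means differed in how alike they were between genes. On log2(TPM + 1) over the 8 muscles, *Cxcl9* and *Cxcl10* deviated most alike (Pearson r = 0.95), and *Cxcl16* went with both (0.80 and 0.81) and with *Cxcl14* (0.88). *Cxcl2* went with *Cxcl5* (0.82) and *Cxcl1* (0.78), but r between *Cxcl1* and *Cxcl5* was 0.39. *Cxcl5* had 1, 1, 0 and 1 reads in the *Uba1* siRNA muscles, so its coefficients rest mainly on the NT muscles, with 46 reads. *Cxcl12* and *Cxcl13* had an r of 0.73, with few reads behind *Cxcl13*. Between *Cxcl1* and *Cxcl9*, *Cxcl10*, *Cxcl14* or *Cxcl16*, r lay between -0.50 and -0.47. Over all 36 pairs the median was 0.06. These coefficients describe the same 8 libraries, which include both legs of each mouse, and carry no test.

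**Figure D3:**
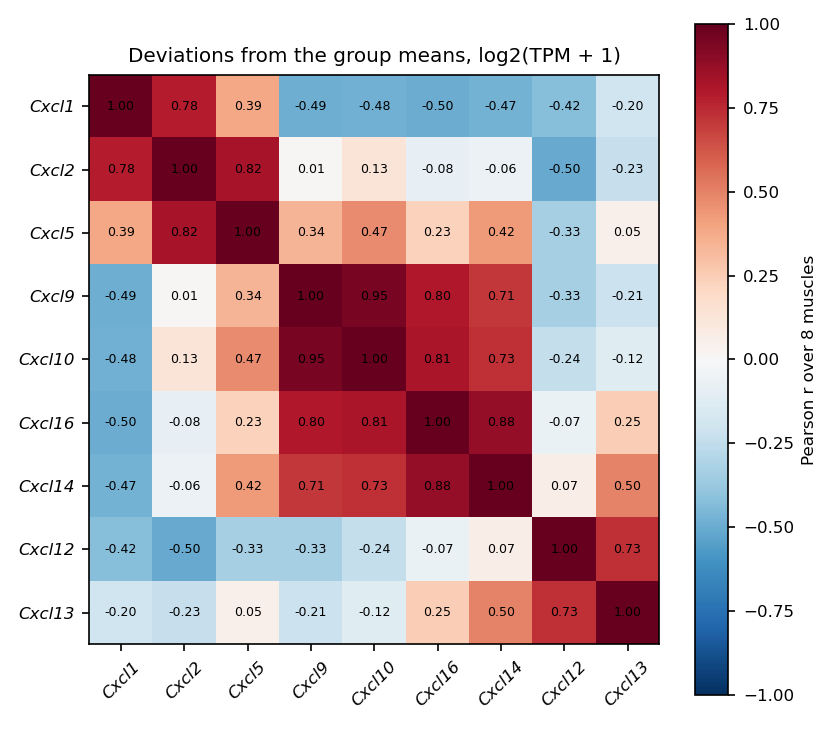
Pearson r between chemokines (both axes) of their deviations from the group means in log2(TPM + 1) over 8 muscles, with red for positive and blue for negative values. One block joins *Cxcl9*, *Cxcl10*, *Cxcl16* and *Cxcl14* at 0.71 to 0.95, and *Cxcl1* is negative against each of them.

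Of the 11529 other genes tested, those whose deviations were most like those of *Cxcl1* were *Kyat3* (r = 0.95), *Frat1* (r = 0.95) and *Nfkbiz* (r = 0.93), and 13 genes were above 0.9. They were picked as the highest of 11529 coefficients over the same 8 libraries, where high values can arise by selection, and carry no test. *Nfkbiz* was at 13.8 ± 2.26 TPM with NT siRNAs and 6.0 ± 3.68 TPM with *Uba1* siRNAs (SD, n = 4 each), a log2FC of -1.21 (adjusted p = 0.157 from limma). *Kyat3* had a log2FC of 0.05 and *Frat1* of 0.22 (adjusted p = 0.765 and 0.220 from limma).

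The other CXC ligands were low or did not pass the test. Of 6 genes, *Pf4* and *Ppbp*, whose proteins are stored in platelets, reached the filter. Of these 2, 0 passed an adjusted or an unadjusted p of 0.05 in limma, against 0.026% and 18% of all genes tested. *Ppbp* was lower in 4 of 4 pairs, at 1.36 ± 0.352 against 0.924 ± 0.240 TPM (SD, n = 4 each; log2FC -0.29, adjusted p = 0.280 from limma), as were 2.98% of all genes tested. With the replicate block *Ppbp* passed an unadjusted p of 0.05 (limma), as did 25.2% of all genes. The summed TPM of the 3 platelet markers was also lower in 4 of 4 pairs, at 0.485 to 1.10 and 0.400 to 0.777 TPM. Only 2 of the 3 were above 0 in every muscle and 0 reached the filter, and their part in the level of *Ppbp* was not tested. *Pf4* was at 11.8 ± 4.15 and 11.6 ± 4.96 TPM (SD, n = 4 each), above the summed platelet markers in every muscle, and the cells behind its level were not tested. *Cxcl3*, the CXCR2 ligand that shares the 11-base run, had 0, 6, 0 and 4 reads with NT siRNAs and 0, 0, 0 and 1 with *Uba1* siRNAs. *Cxcl11*, which lies beside *Cxcl10*, was at 0.326 and 0.331 TPM, and *Cxcl15* and *Cxcl17* were listed at 0 in all muscles.

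Among the 10 receptors, 3 reached the filter. Of these 3, 0 passed an adjusted or an unadjusted p of 0.05 in limma, against 0.026% and 18% of all genes tested. *Ackr3* was at 14.2 TPM in both groups, *Cxcr4* at 6.38 TPM in both, and *Ackr1*, which takes up inflammatory chemokines on venules, at 4.93 ± 0.895 and 3.97 ± 1.35 TPM (SD, n = 4 each; log2FC -0.29, adjusted p = 0.446 from limma). Without *Uba1* replicate 2, the log2FC of *Ackr1* was -0.09. *Cxcr2*, the receptor of CXCL1, CXCL2 and CXCL5, was at 0.312, 0.826, 0.460 and 0.588 TPM with NT siRNAs and at 0.534, 1.07, 1.68 and 0.928 TPM with *Uba1* siRNAs. It was higher in all 4 pairs, from 101 reads to 192 reads, with overlapping groups. Within each group its order of muscles was that of the summed neutrophil markers given above, and their part in its level was not tested. *Ackr4*, an atypical receptor that removes chemokines, had 17, 8, 8 and 14 reads with NT siRNAs and 16, 31, 35 and 58 with *Uba1* siRNAs. Its 10.4 reads per TPM and kb, against 15.5 to 15.8 for 7 of the chemokines, leave its gene length or number of reads uncertain. Its TPM did not overlap between groups, although replicate 1 was nearly equal in both legs (0.20 and 0.202 TPM). With median-ratio scaling the groups overlapped, and *Ackr4* was higher in 3 of 4 pairs and *Cxcr2* in 4 of 4. Of all genes above 0 in at least 4 muscles, 25% were higher in all 4 pairs and 8.16% were higher with no overlap.

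Of the 8 genes that process or bind chemokines, all were tested and 0 passed the adjusted p in limma, against 0.026% of all genes tested. *Sdc4* was close to the threshold. At an unadjusted p of 0.05, *Sdc4* and *Ndst1* passed, 1 in each direction, whereas 1.98% of all genes tested passed with a lower and 16% with a higher level. With median-ratio scaling, 773 of the 11530 genes tested passed with a lower and 450 with a higher level. With the replicate block *Adam10* passed as well, so that 3 of the 8 did (limma), against 25.2% of all genes tested. *Sdc4*, a heparan sulfate proteoglycan of the cell surface, was at 35.4, 43.0, 33.1 and 39.2 TPM with NT siRNAs and at 20.4, 23.5, 19.1 and 25.3 TPM with *Uba1* siRNAs. The groups did not overlap, as for 1.01% of all genes tested in that direction, and it was lower in 4 of 4 pairs, as were 2.98%. The log2FC was -0.75 ± 0.109 (SE; limma, adjusted p = 0.0527), and with the replicate block it passed (adjusted p = 0.00984 from limma). *Ndst1*, an enzyme of heparan sulfate synthesis, was at 21.7 to 23.5 TPM and 25.0 to 28.4 TPM (log2FC 0.19, adjusted p = 0.187 from limma), with a log2FC of 0.07 under median-ratio scaling. *Sdc2* had the log2FC closest to 0 of the list, 0.03, but it was -0.088 with median-ratio scaling, where *Adam17* was closest, and between -0.11 without *Uba1* replicate 3 and 0.17 without *Uba1* replicate 2 with 1 muscle left out. The median of the 8 was 0.14, against 0.11 for all genes tested.

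The 15 genes of signals that induce CXC chemokines included 10 tested genes, of which 0 passed the adjusted p in limma, against 0.026% of all genes tested. At an unadjusted p of 0.05, 1 (*Tnf*, lower) passed, against 1.98% of all genes tested with a lower level. That share rose to 773 of the 11530 genes with median-ratio scaling. With the replicate block, 5 of the 10 passed an unadjusted p of 0.05, against 25.2% of all genes. *Tnf* was at 1.97, 4.61, 2.04 and 2.65 TPM with NT siRNAs and 0.868, 1.60, 0.843 and 2.45 TPM with *Uba1* siRNAs, lower in 4 of 4 pairs with overlapping groups (log2FC -0.65, adjusted p = 0.238 from limma). *Il1b* was at 4.39, 10.9, 7.43 and 5.56 TPM and at 4.12, 5.57, 4.82 and 5.49 TPM, also lower in 4 of 4 pairs (log2FC -0.37, adjusted p = 0.371 from limma), and its log2FC was -0.16 without NT replicate 2. Of all genes tested, 2.98% were lower in all 4 pairs, as *Tnf* and *Il1b* were. *Il1a*, below the filter, was at 0.0698 to 0.294 TPM with NT siRNAs and 0.0700 TPM or less with *Uba1* siRNAs. Of the 10 tested genes, 7 had a log2FC above 0, or 5 with median-ratio scaling. Among them, the receptor genes *Il1r1* (log2FC 0.21), *Tnfrsf1a* (0.17), *Ifngr2* (0.13) and *Ifnar1* (0.09) were higher in 4 of 4 pairs, like 32.2% of all genes tested. With median-ratio scaling their log2FC were 0.11, 0.05, 0.0077 and -0.024, and only *Il1r1* of the 4 stayed higher in every pair. Single muscles also moved these values, to 0.096 without *Uba1* replicate 3 for *Il1r1*, 0.06 without NT replicate 1 for *Ifngr2*, and 0.10 and 0.04 without NT replicate 4 for *Tnfrsf1a* and *Ifnar1*. *Ifnar2* had the log2FC closest to 0, -0.025, but with median-ratio scaling it was at -0.13 and *Ifngr2* was closest, and without NT replicate 3, *Uba1* replicate 2 or *Uba1* replicate 4 it was above 0 (0.059 to 0.073). *Il17a* was listed at 0 in all muscles, and *Ifng* and *Ifnb1* at 0.107 TPM or less. The median log2FC of the 10 was 0.09, against 0.11 for all genes tested.

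**Figure D4:**
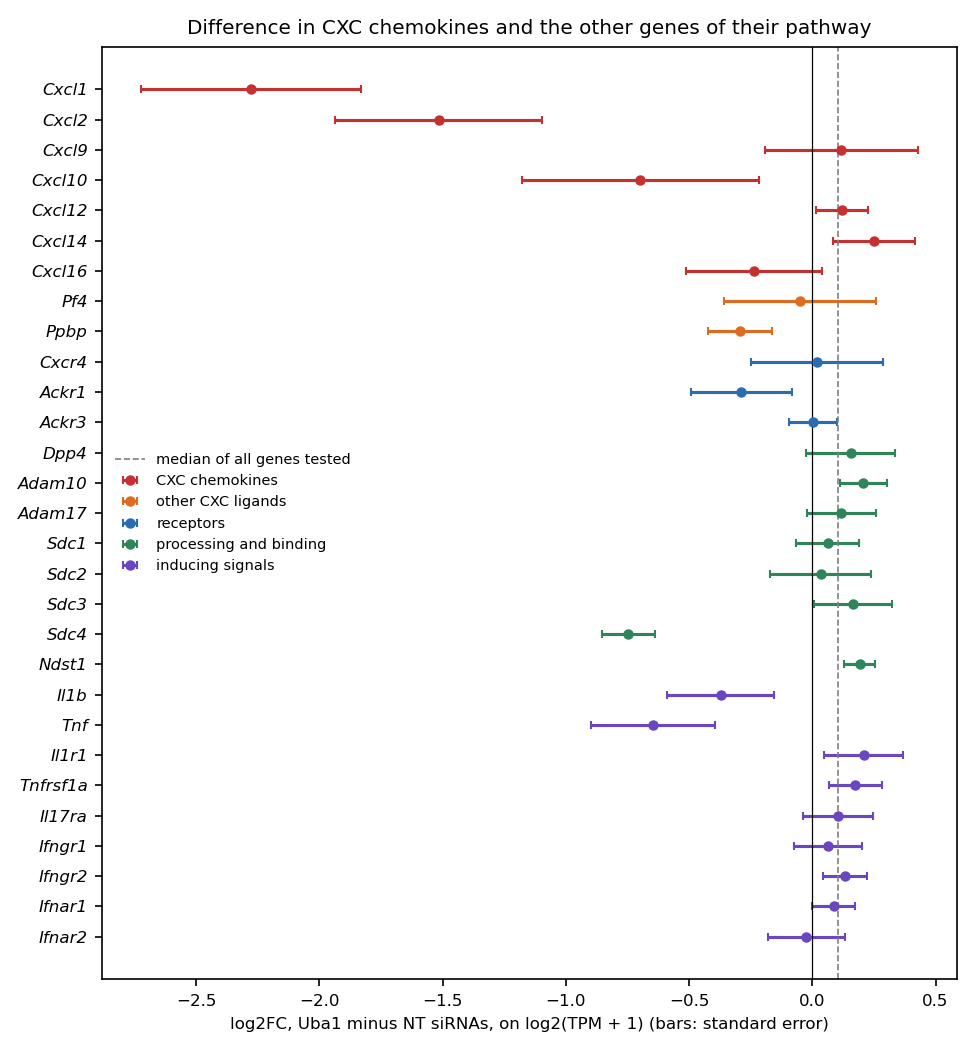
log2FC of the tested CXC chemokines, other ligands, receptors, processing and binding genes and 9 of the 10 tested inducing signals (x axis, log2(TPM + 1), *Uba1* siRNAs minus NT siRNAs), with bars for the standard error from limma. The dashed line marks the median of all genes tested, 0.11. *Cxcl1* (-2.28), *Cxcl2* (-1.52), *Sdc4* (-0.75), *Cxcl10* (-0.70) and *Tnf* (-0.65) lie farthest to the left.

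**Figure D5:**
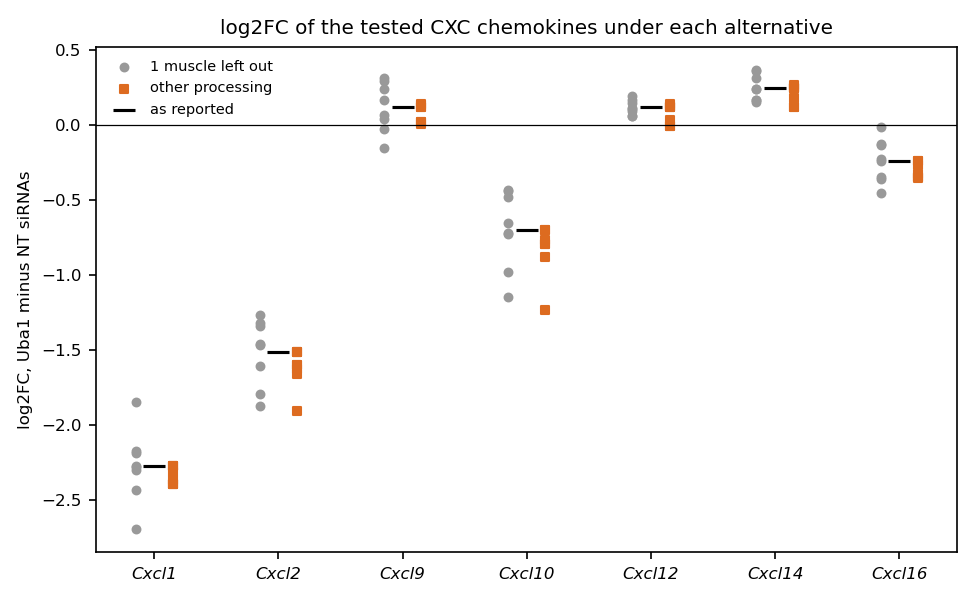
log2FC of the 7 tested chemokines (y axis) under each alternative, with grey points for fits without 1 muscle, orange squares for other processing and a black dash for the value as reported. *Cxcl1*, *Cxcl2*, *Cxcl10* and *Cxcl16* stay below 0 and *Cxcl14* above 0 in every fit, whereas *Cxcl9* and *Cxcl12* cross 0.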

How the data were processed

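Total mRNA of 8 TA muscles was profiled by RNA-seq from TruSeq libraries. Paired-end reads were trimmed by the authors and mapped in CLC Genomics Workbench (genome GRCm39), and TPM, which have the same sum in each muscle, were deposited. The annotation and the handling of reads that match several genes are not given in the sources used here. Since *Cxcl1* and *Cxcl2* are similar in sequence, reads could be shared between them. TPM keep no total read count, but low values move in whole steps. The worth of 1 read differed by at most 1.09-fold between muscles, and reads are the smallest whole numbers (tolerance 0.02) that give a gene's values. Intervals on reads cover counting error only, and the number of muscles limits the precision.

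The 11530 genes that reached 1 TPM in 4 or more of the 8 muscles were tested on log2(TPM + 1) with limma 3.58.1 in R 4.3.3 (lmFit, eBayes with a trend, no covariates), with Benjamini-Hochberg adjustment over all of them. The study names a Kruskal-Wallis test. With 4 against 4, an exact rank test cannot go below p = 0.0286, so it was an alternative. Other alternatives were a pseudocount of 0.1, no filter, a mean of 5 TPM, median-ratio scaling, quantile normalization, TPM without mitochondrial genes, the replicate block and leaving out each muscle. Same-numbered muscles are the legs of 1 mouse per the labels and the study's methods, and the correlations of their deviations across genes were -0.00037, 0.20, 0.58 and 0.54. Named were all 9 chemokines, *Uba1*, the 3 genes most like *Cxcl1*, and in each list of the pathway the genes that passed or had the largest and smallest log2FC, with further genes of those lists chosen after their values were seen. One gene of the inducing signals is counted in its list but not reported here. The members and lists were chosen with earlier results of these data known. The fit was tested on simulated data. Sequences were read from GRCm39 at GENCODE M39 canonical starts.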

Additional observations from a re-analysis of the deposited data

Results flagged for a closer look

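In 42 groups of 4 muscles searched, with chance flagging about 1 in 20 (2.1 groups), 2 values stood apart from the other 3 of their group. *Cxcl5* in *Uba1* replicate 3 was at 0 TPM, whereas the other 3 *Uba1* siRNA muscles had 1 read each. The B cell markers summed to 3.15 TPM in NT replicate 2.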

How the results depend on the processing

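The 6 tested chemokines other than *Cxcl1* had 0 genes past the adjusted p under all 17 alternatives, the replicate block included, but a mean of 5 TPM left only 3 of the 6 to test. Of the 23 tested pathway genes 0 passed, also in the exact rank test, and 1 (*Sdc4*) passed with the replicate block, with the replicate block and median-ratio scaling, with a mean of 5 TPM or more (1 of 15 genes), and without *Uba1* replicate 4, so the range over left-out muscles was 0 to 1. The log2FC of *Uba1* passed the threshold with a mean of 5 TPM (-1.98), median-ratio scaling (-2.10), quantile normalization (-2.06), TPM without mitochondrial genes (-2.0), the replicate block (-1.98) and the replicate block with median-ratio scaling (-2.10). It ranged from -2.18 without *Uba1* replicate 4 to -1.64 without *Uba1* replicate 2, and passed in these 2 of the 8 fits without 1 muscle. It did not pass in the other 6 (adjusted p 0.0838 to 0.230), with a pseudocount of 0.1, without the filter or in the exact rank test. *Cxcl9* turned to -0.028 without NT replicate 1 and -0.15 without *Uba1* replicate 3 (up to 0.32 without *Uba1* replicate 2), and *Cxcl12* to -0.0047 with median-ratio scaling, with or without the replicate block. Neighbours in the order of NT levels with ranges that did not overlap numbered 3, and 5 without NT replicate 1. With the annotated exon length for *Cxcl14* and *Cxcl16*, chosen after seeing the data, it was also 3. The causes were not tested. At the adjusted p, the replicate block changed no other call among the chemokines and the pathway genes. All genes past the adjusted p numbered 3, and from 0 (exact rank test) to 82 (replicate block with median-ratio scaling) over the alternatives. The 9 genes' reads limit *Cxcl5* and *Cxcl13* most.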
